A study of Arabidopsis thaliana with 4 samples.

Results

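The auxin response of *arf7* mutant roots was described by comparing the *arf7*-NAA library with the *arf7*-MOCK library, 2 of the 4 RNA-seq libraries of the series. The other 2 libraries, Col-NAA and Col-MOCK, gave the response of the wild type Col-0 and served as the background. All 4 were made from the roots of 8-day-old *Arabidopsis thaliana* seedlings kept on 1/2 MS medium, either wild type or carrying the *arf7* T-DNA allele Salk_040394, and either untreated (MOCK) or given 10 μM of the synthetic auxin naphthalene acetic acid (NAA) for 4 h. The mutant is a single insertion line, and the number of seedlings pooled in a library is not given in the sources used here. Growth was dark according to the labels and under a 16 h photoperiod according to the methods, so the light that these roots received is not known. Of 27307 transcript models with reads in the series, belonging to 23425 genes, 25812 had reads in at least 1 *arf7* library and all of them were compared.

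Auxin acts by bringing Aux/IAA repressors to a receptor ligase that marks them for destruction, which frees the AUXIN RESPONSE FACTORs (ARFs) to act on the promoters of early auxin genes. These early genes include the *Aux/IAA* repressors themselves, the *SAUR* genes of cell expansion and the *GH3* enzymes that conjugate auxin to amino acids. ARF7 is an activator of this class that, with its close relative ARF19, switches on the LATERAL ORGAN BOUNDARIES DOMAIN (LBD) genes that start lateral roots, and *arf7* seedlings form few lateral roots.

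The libraries held from 7.03 M to 7.57 M reads (M, 1000000 reads) assigned to 1 transcript model, with a median of 43 to 46 reads per model, so that depth was alike in all 4. The top model, *PYK10*, a beta-glucosidase of root endoplasmic reticulum bodies, took 1.95 to 2.26% of the reads of a library. Levels are in CPM, the reads of a model per 1000000 reads of its library. A difference was called where CPM differed by at least 2-fold and an exact two-sided binomial test on the reads of the 2 libraries gave p under 0.0001. With 1 library per condition these calls rest on counting error alone, and the 95% intervals given in brackets are exact intervals of the same kind that hold no variation between seedlings or libraries. Where a library had 0 reads, the ratio was taken against 3 reads, which is 0.415 CPM in *arf7*-MOCK and 0.427 in *arf7*-NAA. Reads are given below in the order Col-MOCK, Col-NAA, *arf7*-MOCK and *arf7*-NAA. The targeted gene could not check the labels, because only reads unique to a model were kept and *ARF7*, listed as *NPH4* (AT5G20730), was left with 5, 12, 8 and 3 reads on the 1 model with reads in the tables.

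In *arf7* roots 180 models were called, 0.697% of those tested, and they split almost evenly into 88 higher after NAA (0.341%) and 92 lower (0.356%). The 2 directions differed in size and in depth. The rises had a median of 2.42 on the log2 scale, and 60 of them were 4-fold or larger, whereas the falls had a median of −1.31 and 11 were 4-fold or larger. Low counts were common among the rises, of which 44 had fewer than 10 reads in 1 of the 2 libraries and 15 had none there, against 8 and 0 of the falls. Over 16253 genes with at least 20 reads in the *arf7* libraries combined, the median log2 ratio was −0.02, with quartiles of −0.21 and 0.15. In Col roots 252 models were called (0.979%), of which 95 were higher and 157 lower. Counted per gene, 88 genes rose and 91 fell in *arf7*, 0.391% and 0.404% of 22529 and together 0.795%, and in Col 0.419% rose and 0.686% fell. How far libraries of 1 condition vary is not known here. When they were assumed to vary with a coefficient of 0.2 in the exact test of edgeR, 41 rises and 5 falls were called, and 8 and 0 when they were assumed to vary with 0.4.

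**Figure D1:**
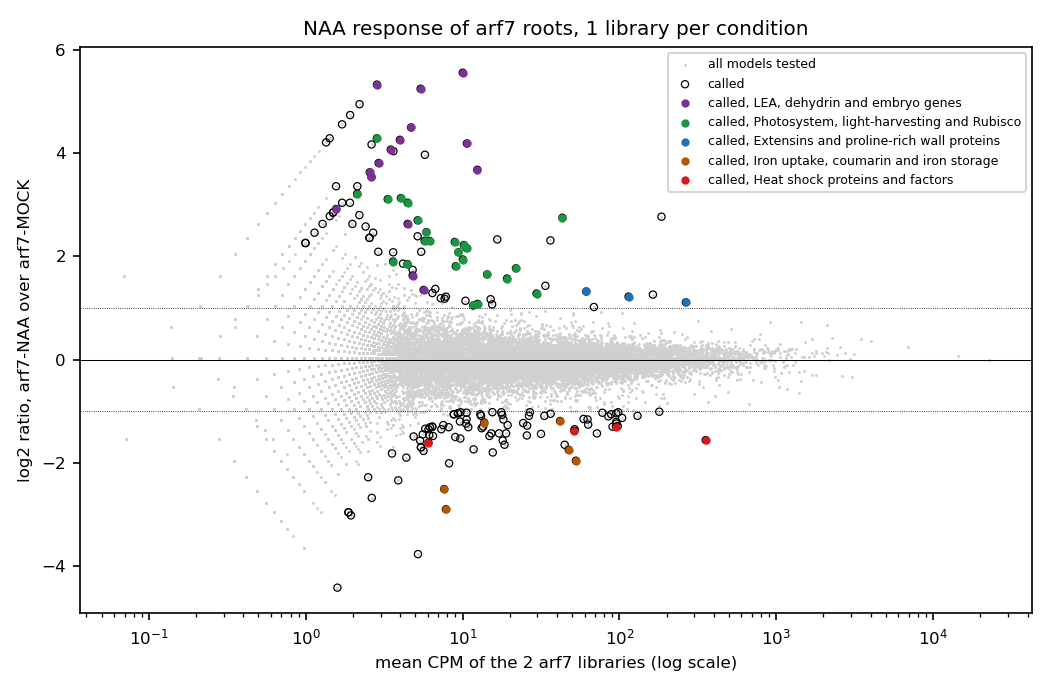
Log2 ratio of *arf7*-NAA to *arf7*-MOCK for each transcript model (vertical axis) against its mean level in CPM (horizontal log axis), with a count of 0 set to 3 in the ratio and the called members of the main groups in colour. The LEA and photosystem genes lie above the centre at low to middle levels, and the iron and heat shock genes lie below it at middle to high levels.

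The levels of the called models were set beside the Col libraries. The call itself puts the *arf7* libraries at least 2-fold apart, which by itself tends to place them at the ends of the range, so these positions are a description only. Of the 88 rises, 78 had their highest level of all 4 libraries in *arf7*-NAA (88.6%), and 48 had their lowest level in *arf7*-MOCK (54.5%). For 40 of them *arf7*-NAA lay outside the range of the Col libraries while *arf7*-MOCK lay within it, for 10 the reverse held, and for 38 both *arf7* libraries lay outside, on opposite sides. Of the 92 falls, 65 had their highest level in *arf7*-MOCK and 68 their lowest in *arf7*-NAA, and for 43 both *arf7* libraries lay outside the Col range. Of the rises 3 were also called higher in Col, and 10 of the falls were also called lower there, against shares of 0.369% and 0.61% of all models.

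The list with the highest share of called genes was that of late embryogenesis abundant (LEA), dehydrin and embryo genes, below the LEA list. LEA proteins and dehydrins are hydrophilic proteins that seeds accumulate as they dry, and the list also holds other genes of the late embryo, such as a storage protein, a cysteine protease and a membrane protein. Of 30 members with reads, 15 rose in *arf7* after NAA, against 0.391% of all genes, and none fell. The reads of *AT3G17520*, a LEA protein gene, were 1, 4, 3 and 138, a log2 ratio of 5.56 [3.99, 7.86] in *arf7*. *AT3G02480*, another LEA gene, had 10, 6, 8 and 142 reads, and its log2 ratio was 4.19 [3.17, 5.43]. The reads of *AT3G15670* were 10, 2, 13 and 162, a log2 ratio of 3.68 [2.87, 4.62]. In each of these genes the 3 other libraries held 13 reads or fewer and *arf7*-NAA stood far above them.

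Short windows of the promoters of these genes are printed because they carry an element known from seed and abscisic acid (ABA) genes. ABA-responsive elements are built around ACGTG and are bound by basic leucine zipper factors, and CACGTG is the G-box. The sequences come from the RefSeq TAIR10.1 assembly, whose gene positions overlapped those of the deposited tables on the same chromosome and strand for 23230 of 23239 genes compared. Promoters of 250 bases before to 50 bases after the annotated start were searched on both strands for CACGTG and for ACGTGT. The motifs can overlap, since CACGTGT holds both. Either motif was found in 13 of the 15 called genes of the LEA list (86.7%), and in 15.5% of the 22357 promoters of all genes tested. The share among members of the list that were not called was not computed. Whether the motif goes with the call or with the list was therefore not tested. Of the promoters of all 88 genes called higher 39.8% held a match, and of those called lower 23.3%. One window per gene follows, 5′ to 3′ on the gene strand, with the matched motif in capitals, its position in the genome, and the distance of its first base from the start.
AT3G17520, chr3:6000587-6000610, minus strand, 154 bases before the start: tttgtgtaaCACGTGtcaagaacc
AT2G42560, chr2:17717120-17717143, minus strand, 222 bases before the start: gaaagactcCACGTGcacatgtac
AT4G21020, chr4:11228083-11228106, plus strand, 95 bases before the start: gttcacccaCACGTGtcagatact
AT3G54940, chr3:20354247-20354270, plus strand, 95 bases before the start: caaacatccCACGTGtttccactc
AT3G02480, chr3:512175-512198, plus strand, 36 bases before the start: gttatccaaCACGTGgatcccaaa
AT1G04560, chr1:1244884-1244907, plus strand, 54 bases before the start: ttcgcatggCACGTGctccttgcc
AT4G36600, chr4:17263494-17263517, plus strand, 61 bases before the start: tcgaataacCACGTGtcttacaat
AtLEA4-1, chr1:11774390-11774413, plus strand, 85 bases before the start: cattaataaCACGTGgaattaatg
ECP63, chr2:15358755-15358778, minus strand, 150 bases before the start: tgaaaagtcCACGTGtcataccac
LEA18, chr2:14863453-14863476, minus strand, 55 bases before the start: tacgtattaCACGTGgtgataacc
LEA4-5, chr5:2090543-2090566, minus strand, 127 bases before the start: gctttccaaCACGTGtaggaccaa
EM1, chr3:19214597-19214620, plus strand, 116 bases before the start: taagcatcaACGTGTcatctccgt
AT3G15670, chr3:5311039-5311062, minus strand, 65 bases before the start: tgtgctaatACGTGTcttcttctc
In 11 of these windows the motif is the full G-box, which 8.39% of all promoters held, and in *EM1* and *AT3G15670* it is ACGTGT without the first C. The auxin response elements TGTCTC and TGTCGG, to which ARFs bind, were found in 17% and 7.95% of the promoters of genes called higher in 7.78% and 4.44% of those of genes called lower and in 13.9% and 5.47% of all promoters. In the 15 called genes of the LEA list the shares were 20% and 26.7%, and either element was found in 46.7%, beside 18.7% of all promoters. A match is only a run of letters, and no binding was measured.

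Most of the other genes of the LEA list that rose were nearly silent in 3 libraries. *EM1*, an Em protein of the mature embryo, had 0, 0, 0 and 36 reads. With the 0 of *arf7*-MOCK taken as 3 reads it was 12.3-fold higher in *arf7*-NAA, a ratio that is not a lower bound. On the same footing *AT1G04560*, of the AWPM-19 membrane protein family, had 0, 0, 0 and 49 reads and was 16.8-fold higher. *AT3G54940*, a papain family cysteine protease, had 1, 0, 0 and 56 and was 19.2-fold higher. The dehydrin gene listed as *LEA* (AT2G21490) had 0, 0, 0 and 22 reads and was 7.55-fold higher when the 0 was taken as 3 reads. *AT2G42560* had 2, 0, 2 and 74 reads and a log2 ratio of 5.25 [3.35, 8.32]. The smallest of the 15 rises were those of *LEA18*, with 7, 4, 17 and 51 reads and a log2 ratio of 1.63 [0.81, 2.51], and *LEA4-5*, with 31, 7, 23 and 57 and 1.35 [0.63, 2.12].

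The genes of the list that roots express at high levels did not move with them. *LTI30*, a cold-induced dehydrin, had 2666, 1737, 2179 and 1682 reads and a log2 ratio of −0.33, and *LEA14* had 812, 471, 696 and 561 reads and −0.27. Only 5 of the 30 members had at least 20 reads in *arf7*-MOCK, of which *LEA4-5* alone was called, and their median log2 ratio was −0.19. The 17 members that reached 20 reads through *arf7*-NAA had to be higher there, so the median of 3.23 over the 22 members that passed describes the choice of members as much as the response. Of the 15 calls, 13 were kept when libraries were assumed to vary with a coefficient of 0.2 and 8 when the assumed value was 0.4. None of the 58 genes of the ABA response and signalling list was called, and their median log2 ratio was −0.06. With 0.795% of all genes called, a list of this size would often hold no call.

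Of 12 seed storage and oil body genes with reads 3 rose, against 0.391% of all genes. They were *PAP85*, a vicilin-like storage protein that is also among the 15 rises of the LEA list, *OLEO2* and the oleosin gene *AT3G01570*. Oleosins coat the oil bodies of seeds. *AT3G01570* had 11, 5, 10 and 41 reads, a log2 ratio of 2.08 [1.06, 3.24]. *OLEO2* had 0, 0, 1 and 23 reads and 4.56 [1.94, 9.93]. The list of 8 markers of seed storage cells had 6 genes with reads, which summed to 1, 1, 2 and 38 in the 4 libraries, or 0.132, 0.135, 0.277 and 5.41 CPM. *CRA1* and *CRU3*, the cruciferins that dominate dry seed, had no reads in any library. Only reads unique to 1 model were kept, so the absence of reads does not show that these genes were silent. The part of seed material in the LEA rises was not tested, and in RNA from whole roots more cells of a type and more RNA per cell cannot be told apart.

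**Figure D2:**
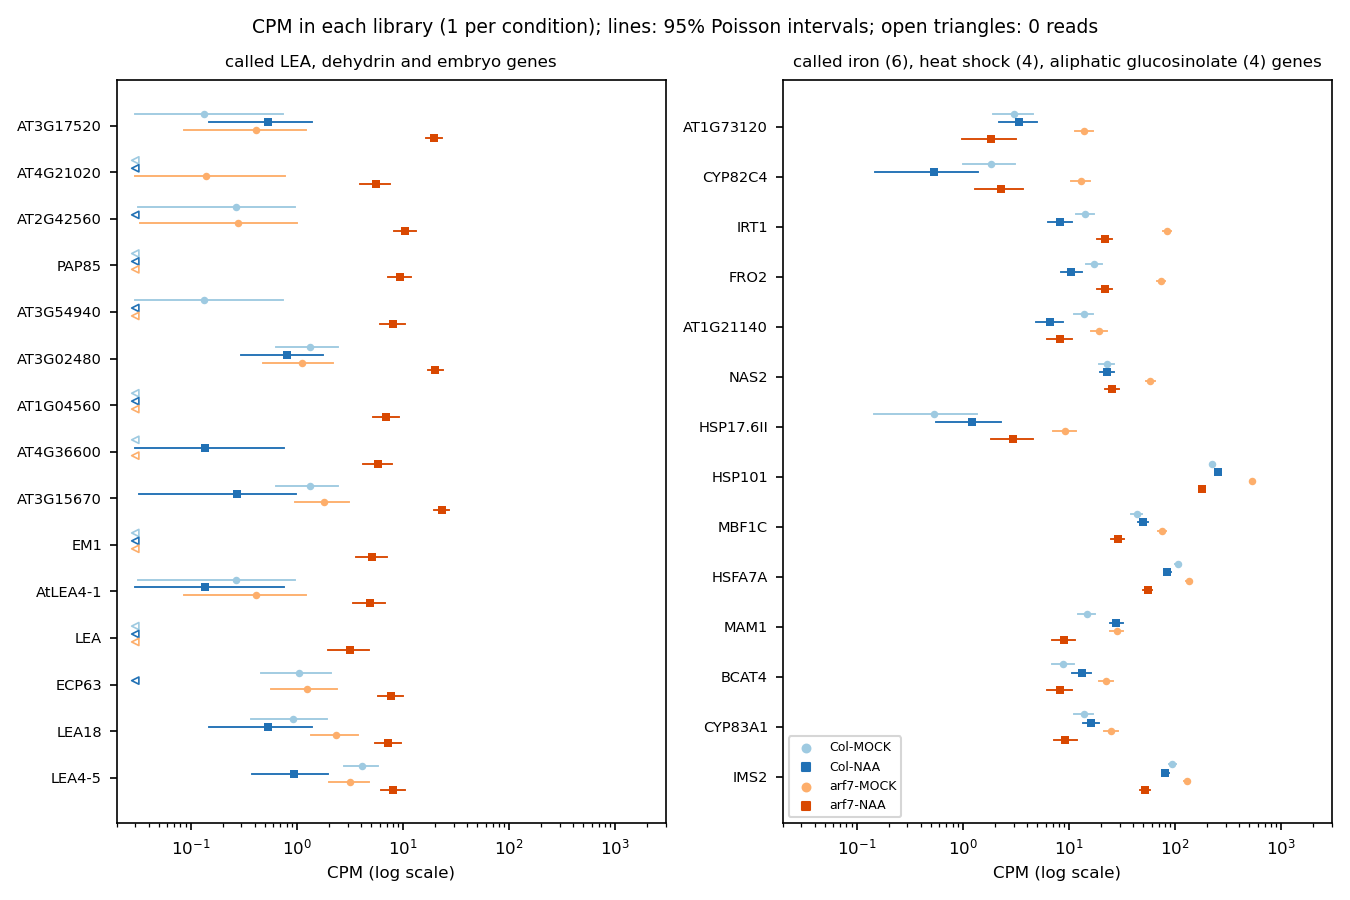
CPM (horizontal log axis) in the 4 libraries for the 15 called genes of the LEA list and for called iron, heat shock and aliphatic glucosinolate genes, with exact Poisson 95% intervals as lines and open triangles for 0 reads. *arf7*-NAA is the highest library in the LEA-list genes, and *arf7*-MOCK is the highest in the iron and heat shock genes.

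Genes of photosynthesis formed the other large group of rises. Of 87 members of the photosystem, light-harvesting and Rubisco list 24 rose, against 0.391% of all genes, and none fell. Log2 ratios were above 0 in 50 of the 53 members with at least 20 reads, and in 7562 of 16253 genes. Of the 53, 25 had fewer than 20 reads in *arf7*-MOCK and passed with the help of *arf7*-NAA. This favours ratios above 0, so the count partly describes the choice of members. The median of the list was 1.36 in *arf7* and −0.34 in Col. Over the 28 members with at least 20 reads in *arf7*-MOCK alone, 13 rose and the median was 0.91. *CAB1* (chromosome 1, 10478005 to 10479048), a light-harvesting chlorophyll a/b protein, had 317, 238, 81 and 530 reads and a log2 ratio of 2.75 [2.41, 3.11]. Its change in Col was −0.38, and the difference between the genotypes was 3.13 [2.72, 3.55]. *CAB1* was thus both the lowest in *arf7*-MOCK and the highest in *arf7*-NAA.

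The 24 were subunits of both photosystems, antenna proteins, plastocyanin and enzymes of the Calvin cycle, while *PETC* of the cytochrome b6f complex and *ATPC1* and *ATPD* of the ATP synthase were not called. In photosystem I, *PSAF* had 210, 158, 70 and 202 reads, a log2 ratio of 1.57 [1.17, 1.98], and the values of *PSAD-1* were 74, 67, 26 and 118 with 2.22. In photosystem II, *PSBO1* of the oxygen-evolving complex had RPKM values of 26.2, 22.4, 13.9 and 33.7 and a ratio of 1.28 [0.97, 1.59], and *LHCB5*, an antenna protein, had 122, 65, 30 and 112 and 1.94. Scaled to library size, *LHCB5* ended just below and *PSAF* just above the Col-MOCK library. In the Calvin cycle, *GAPB* had 48, 34, 22 and 104 reads and a log2 ratio of 2.28 [1.61, 3.02], and phosphoribulokinase, *PRK*, had 20, 20, 14 and 67 and 2.30. Plastocyanin, listed as *DRT112*, had 127, 86, 72 and 238 reads and 1.77. The Rubisco small subunit gene *RBCS1A* had 23, 12, 15 and 72 reads and 2.30 [1.49, 3.21], and its near-identical relatives *RBCS1B* and *RBCS2B* had 2 and 38 and 6 and 51 reads in the *arf7* libraries, so that the split of reads among them is uncertain.

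Not all members rose to a new level. *LHB1B2*, another antenna protein, had 380, 308, 55 and 111 reads, a called ratio of 1.05 that left *arf7*-NAA below both Col libraries. *PSBR*, with 258, 204, 176 and 239 reads, had a ratio of 0.48, and *ELIP1*, an early light-induced protein, with 51, 65, 120 and 216 had 0.89; neither was called. The whole list summed to 602, 468, 312 and 739 CPM, so the *arf7* libraries were the lowest and the highest of the 4. With an assumed coefficient of variation of 0.2, 12 of the 24 were called, and 0 with 0.4.

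Some genes of the shoot epidermis and its cuticle rose too. Of 35 genes of a cuticle list drawn up after values were seen, 6 rose, against 0.391% of all genes, and none fell. The median was 0.36, and 0.17 over the 21 members with at least 20 reads in *arf7*-MOCK. Of the 6, 4 had fewer reads there. The list summed to 1530, 1680, 1270 and 1440 CPM, so that *arf7*-NAA lay below both Col libraries. *LTP2*, a lipid-transfer protein of aerial epidermis, had 358, 472, 88 and 425 reads and a log2 ratio of 2.31 [1.98, 2.66]. *PDF2*, a homeodomain factor that keeps epidermal identity, had 126, 214, 12 and 61 reads and 2.39 [1.48, 3.42]. *ABCG11*, a transporter of cuticular lipids, had 96, 154, 27 and 68 and 1.37. All 3 were lowest in *arf7*-MOCK, and *PDF2* and *ABCG11* stayed below both Col libraries after NAA.

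Markers of shoot and root cells were summed in each library. The 8 markers of shoot photosynthetic cells, which include *CAB1*, *PSBO1*, *PSAD-1* and *RBCS1A* from the list above, summed to 737, 570, 265 and 1063 reads, or 97.3, 76.9, 36.7 and 151 CPM. Of the 8, 7 had log2 ratios above 0 in *arf7*. Among these, *LHCB1.1* had only 2 and 4 reads in *arf7*-MOCK and *arf7*-NAA, and *RCA* only 4 and 7. The marker that was not above 0, *LHCB2.1*, a defining antenna gene of leaves, had 7, 1, 0 and 1 reads, also too few for a firm ratio. Root markers moved less: epidermis and hair genes summed to 370 and 400 CPM in *arf7*-MOCK and *arf7*-NAA, cortex and endodermis genes to 674 and 683, stele genes to 722 and 617, and root tip genes to 54.9 and 54.7. The part that shoot tissue in a library had in the photosynthesis and cuticle values was not tested.

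**Figure D3:**
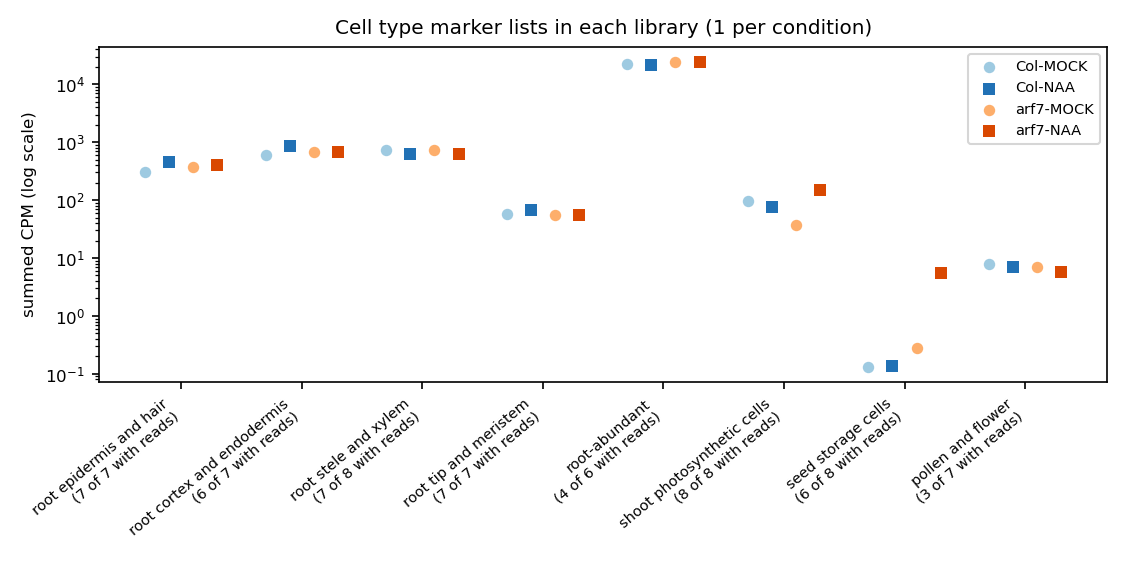
Summed CPM (vertical log axis) of 8 lists of cell type markers in the 4 libraries. The shoot photosynthetic markers run from 36.7 in *arf7*-MOCK to 151 in *arf7*-NAA and the seed storage markers from 0.277 to 5.41. The root lists vary less. Epidermis and hair genes run from 306 in Col-MOCK to 457 in Col-NAA, and cortex and endodermis genes from 612 to 844.

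Single genes of other groups also rose. *ICL*, isocitrate lyase, the enzyme by which germinating seedlings turn stored fat into sugar, had 671, 457, 342 and 2274 reads, a 6.84-fold rise. It was 1 of 29 glyoxylate cycle and beta-oxidation genes and the 1 that was called, against 0.391% of all genes higher. *PCK1*, which acts later on the way to sugar, had 4445 and 5537 reads in the *arf7* libraries and a log2 ratio of 0.36. *HEC1*, a basic helix-loop-helix factor of the gynoecium, had 6, 7, 1 and 30 reads and a log2 ratio of 4.95 [2.36, 10.30]. *GER3*, a germin-like protein, had 3, 5, 5 and 76 reads and 3.97 [2.68, 5.63]. *AT1G09310*, of unknown function, had 74, 47, 40 and 195 reads and 2.33 [1.83, 2.86]. Of 21 hypoxia genes 2 rose, against 0.391% of all genes, *FTM1*, a desaturase, with 90, 72, 72 and 147 reads and *AT5G15120*, a plant cysteine oxidase, with 57, 41, 34 and 75, and the median of the list was 0.42. Neither was called with an assumed coefficient of variation of 0.1. *XTH7*, a xyloglucan endotransglucosylase, had 18, 15, 5 and 29 reads and 2.58.

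The families of early auxin genes held few calls, and over all genes too only 0.391% rose and 0.404% fell. At those shares families of this size would hold few calls or none, so the counts do not set them apart. Among 10 *GH3* genes 1 rose, among 27 *Aux/IAA* genes 1 fell, and none of 46 *SAUR*, 30 *LBD*, 15 *ARF* or 22 auxin transporter genes was called in *arf7*. Their medians over members with at least 20 reads were 0.04 for *GH3*, −0.06 for *Aux/IAA*, 0.02 for *SAUR*, −0.02 for *LBD* and 0.03 for *ARF*, beside −0.02 over all genes. In Col the medians were 0.48 for *GH3*, 0.02 for *Aux/IAA*, 0.43 for *SAUR*, 0.24 for *LBD* and 0.24 for *ARF*, and *LBD29* was the 1 gene of these 5 families that was called. The auxin transporters had medians of −0.00 in *arf7* and 0.06 in Col, where 1 of them was called lower.

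*GH3.3* (AT2G23170, chromosome 2, 9863855 to 9866562), which conjugates auxin to amino acids, was the 1 auxin family gene that rose. Its reads were 94, 171, 697 and 1622, a log2 ratio of 1.26 [1.13, 1.39] in *arf7* and 0.89 [0.52, 1.27] in Col, and the difference of 0.37 [−0.02, 0.75] could not be separated from 0. Both *arf7* libraries lay above both Col libraries, at 45.5 and 109 RPKM against 5.86 and 10.9. *BRU6*, another conjugating enzyme, had 777, 1065, 254 and 461 reads, with log2 ratios of 0.90 [0.68, 1.13] in *arf7* and 0.48 in Col, a difference of 0.42 [0.16, 0.67]. *WES1* (*GH3.5*) had 744, 1165, 214 and 214 reads, with a ratio of 0.04 [−0.24, 0.32] in *arf7* and 0.68 [0.54, 0.81] in Col, and a difference of −0.64 [−0.94, −0.33]. *BRU6* and *WES1* were lower in both *arf7* libraries than in either Col library, the reverse of *GH3.3*.

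*IAA10*, a repressor, had 74, 58, 52 and 18 reads and fell by 1.49 on the log2 scale [−2.35, −0.69], against −0.32 in Col, a call that TMM scaling ended. Of the abundant family members, *IAA16* had 2807 and 2813 reads in the *arf7* libraries, a ratio of 0.04, and *IAA2* had 806 and 725, a ratio of −0.11. *IAA28*, a repressor that acts in lateral root founder cells, had 812, 812, 1123 and 870 reads, and its ratio of −0.33 [−0.46, −0.20] was not called. The SAUR gene *AT5G50760* had 460, 748, 360 and 373 reads, with 0.09 in *arf7* and 0.73 in Col, a difference of −0.64 [−0.91, −0.37].

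None of the following genes of lateral root formation was called in the mutant. *LBD16* had 132, 165, 91 and 117 reads, with log2 ratios of 0.40 [−0.00, 0.82] in *arf7* and 0.35 in Col. *LBD18* had 23, 42, 15 and 12 reads and −0.28 [−1.51, 0.91] in *arf7*, and *LBD29* had 30, 78, 4 and 7 reads and 0.85 [−1.13, 3.07], intervals too wide at this depth to exclude the Col ratios of 0.90 and 1.41. *LAX3*, the auxin influx carrier of the cells that overlie a new root, had 814, 1096, 872 and 784 reads, ratios of −0.11 [−0.25, 0.03] in *arf7* and 0.46 in Col, and a difference of −0.57 [−0.76, −0.38]. *LBD13* had 479, 680, 512 and 483 reads and a difference of −0.58 [−0.82, −0.33]. *ARF19* had 574, 688, 644 and 629 reads, with 0.01 [−0.15, 0.17] in *arf7* and 0.29 in Col. *PRH1*, listed as *PR-1-LIKE*, had 25, 76, 4 and 11 reads, a 2.83-fold ratio in *arf7* whose log2 interval, [−0.25, 3.61], held 0 and also the Col log2 ratio of 1.63, a 3.1-fold ratio that was called. The receptor kinase genes *HAE* and *HSL2* had 41 and 40 and 223 and 207 reads in the *arf7* libraries, and *IDA*, which encodes the peptide they perceive, had 0 in both. *GATA23*, a factor of founder cells, had 1 read in *arf7*-MOCK and none in *arf7*-NAA.

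**Figure D4:**
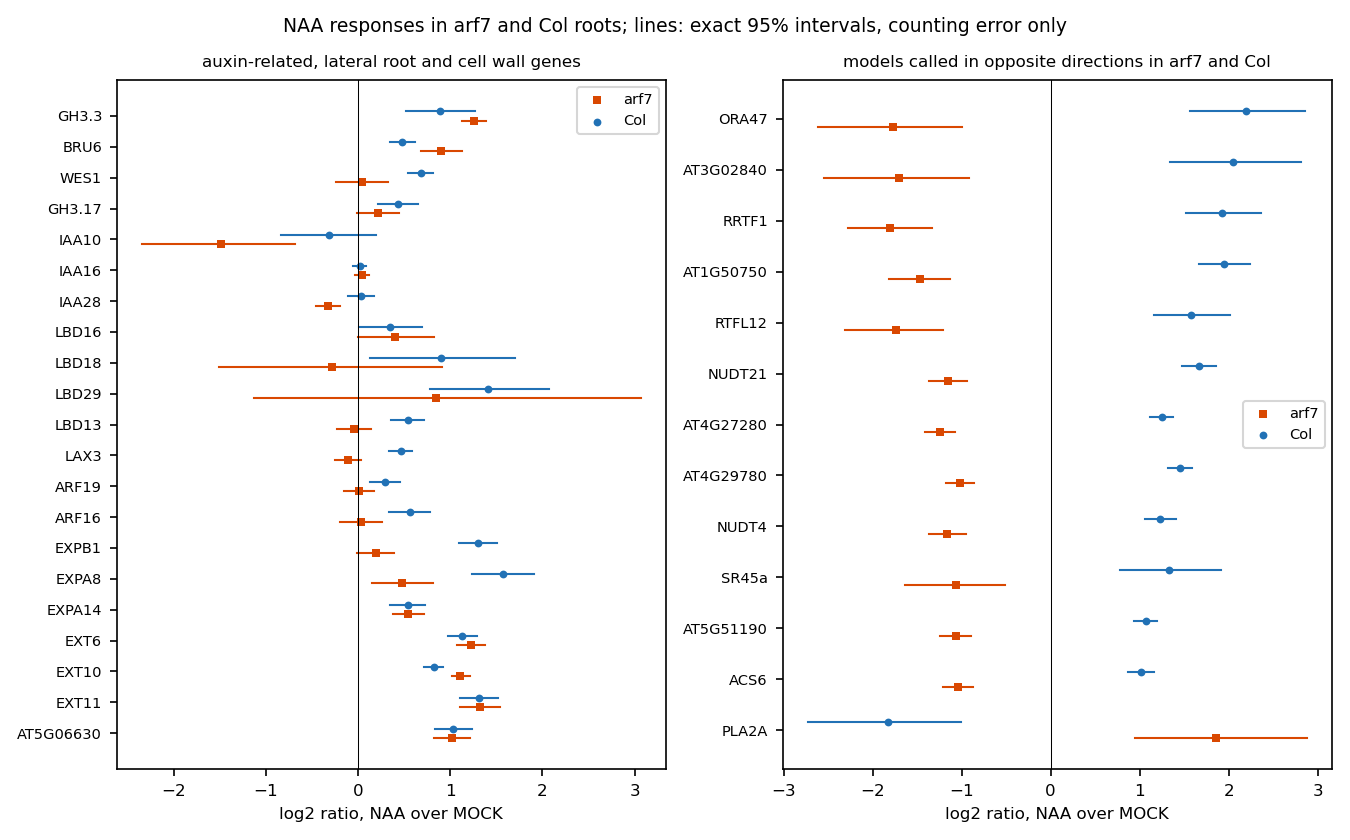
Log2 ratio of NAA to MOCK (horizontal axis) in *arf7* and in Col, with exact 95% intervals of counting error as bars, for 21 auxin, lateral root and wall genes and for the 13 models called in opposite directions. *GH3.3* and the extensins lie above 0 in both genotypes, *LAX3* and *WES1* lie above 0 in Col and at −0.11 and 0.04 in *arf7*, and 12 of the 13 opposed models lie below 0 in *arf7* and above it in Col.

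Cell wall genes were divided. Extensins are hydroxyproline-rich structural proteins that are cross-linked into the wall, many of them in root hairs. Of 64 extensin and proline-rich genes 3 rose in *arf7* and 7 in Col, with medians of 0.13 and 0.45. Over all genes 0.391% rose in *arf7* and 0.419% in Col. *EXT6* (chromosome 2, 10622453 to 10624132) had 503, 1080, 496 and 1126 reads, log2 ratios of 1.22 [1.07, 1.38] and 1.13, and a difference of 0.09 [−0.12, 0.31]. *EXT10* had 1309, 2260, 1212 and 2551 reads, 1.11 [1.02, 1.21] in *arf7* and 0.82 in Col, and *EXT11* had 280, 681, 254 and 617 reads, 1.32 [1.11, 1.54] and 1.31. *AT5G06630*, a proline-rich extensin-like gene, had 288, 578, 329 and 647 reads, 1.02 and 1.03. In these 4 genes both NAA libraries lay above both MOCK libraries. Extensin genes are repetitive and alike in sequence, so the share of their reads that could be placed on 1 model is uncertain. Neither *GH3.3* nor *EXT6*, *EXT10* and *EXT11* were called with an assumed coefficient of variation of 0.2. *EXT3*, the most abundant, had 101291 and 103581 reads in the *arf7* libraries, a ratio of 0.07.

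Expansins, which loosen the wall, gave no call among 24 genes in *arf7*, with a median of 0.06. With 0.391% of all genes called higher and 0.404% lower, a list of this size would often hold none. *EXPB1* had 273, 658, 393 and 437 reads, 0.19 [−0.01, 0.39] in *arf7* and 1.30 in Col, and the difference was −1.10 [−1.39, −0.82]. *EXPA8* had 101, 294, 136 and 184 reads, 0.48 and 1.57, and a difference of −1.09 [−1.55, −0.64]. *EXPA14* had 379, 540, 494 and 700 reads and a ratio of 0.54 in both genotypes. *EXPA17*, an expansin of lateral root emergence, had 306, 220, 255 and 271 reads, with 0.13 in *arf7*. The root hair list, with 45 genes, had no call in *arf7* and medians of 0.10 there and 0.46 in Col.

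Genes of iron uptake were among the largest falls. Roots short of iron reduce ferric chelates with FRO2, take up ferrous iron through IRT1 and secrete coumarins that mobilise iron. Of 60 genes of the iron list 6 fell and none rose, against 0.404% of all genes lower, while the median of the list was −0.12. *IRT1* (AT4G19690, chromosome 4, 10707446 to 10709015) had 107, 61, 607 and 152 reads on its main model, a log2 ratio of −1.96 [−2.22, −1.70], or 3.88-fold lower. *FRO2* had 130, 78, 530 and 153 reads and −1.75 [−2.02, −1.49]. The other model of *IRT1* had 24 and 3 reads in the *arf7* libraries. In both genes *arf7*-MOCK stood far above the 3 other libraries.

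*CYP82C4*, a cytochrome P450 that hydroxylates coumarins, had 14, 4, 94 and 16 reads and a ratio of −2.51 [−3.38, −1.74], and *AT1G73120*, of unknown function, had 23, 25, 100 and 13 and −2.90 [−3.86, −2.06]. *NAS2*, a nicotianamine synthase, had 171, 168, 421 and 179 reads and fell by 1.19 on the log2 scale, with 0.00 in Col. *AT1G21140*, a VIT1-like iron transporter, was the 1 gene of the list called lower in Col too, with 104, 49, 139 and 58 reads and ratios of −1.22 and −1.06. The most abundant genes of the list, *ZIP2*, *ABCG37* and the VIT1-like gene *AT3G25190*, had ratios of 0.01, −0.15 and −0.39 and were not called. With an assumed coefficient of variation of 0.2, 4 of the 6 were called (*FRO2*, *IRT1*, *CYP82C4* and *AT1G73120*), and none with 0.4.

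Heat shock genes fell by smaller steps. Of 59 members 4 fell and none rose, against 0.404% of all genes lower. Ratios were below 0 in 42 of the 53 with at least 20 reads, and in 8691 of 16253 genes. The medians were −0.28 in *arf7* and 0.16 in Col. *HSP101* (chromosome 1, 27936508 to 27940190), the chaperone that pulls proteins out of aggregates, had 1676, 1858, 3833 and 1263 reads, a log2 ratio of −1.56 [−1.65, −1.47] and a difference from Col of −1.74 [−1.87, −1.61]. *HSFA7A*, a heat shock factor, had 803, 626, 978 and 386 reads and −1.30, and *MBF1C*, a coactivator of the heat response, had 328, 370, 540 and 201 and −1.38. In each the *arf7* libraries were the highest and the lowest of the 4.

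The fall of *HSP17.6II* completes the 4. It is also 1 of 4 falls in a list of 36 HSP20-like chaperones drawn up after values were seen, against 0.404% of all genes. *HSP17.6II* had 4, 9, 66 and 21 reads and −1.61, *AT1G07400* had 153, 154, 538 and 205 and −1.35, *AT1G59860* had 76, 78, 195 and 64 and −1.57, and *AT1G54050* had 53, 72, 198 and 80 and −1.27. All were highest in *arf7*-MOCK. *BAG6*, a calmodulin-binding cochaperone, had 494, 458, 759 and 273 reads and −1.43. The abundant *HSP90.1* had 5275, 8240, 12312 and 7626 reads and *HSP70* 9568, 16049, 21009 and 16368, with ratios of −0.65 and −0.32 in *arf7* that were not called and of 0.67 and 0.78 in Col. With an assumed coefficient of variation of 0.2 none of the 4 heat shock calls held.

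Genes of methionine-derived glucosinolates, the sulfur compounds that *Arabidopsis* makes against herbivores, fell at several steps of the pathway. Of 18 members of a list drawn up after values were seen, 4 fell and none rose, against 0.404% of all genes lower. The medians were −0.84 in *arf7* and 0.24 in Col. None of the 4 was called with an assumed coefficient of variation of 0.2. *BCAT4*, the first transaminase, had 67, 98, 161 and 58 reads and −1.43, and *MAM1*, which elongates the side chain, had 111, 207, 203 and 63 and −1.65 [−2.08, −1.23]. *IMS2*, its tandem neighbour, had 712, 598, 930 and 367 reads and −1.30, and *CYP83A1*, which acts in the core pathway, had 104, 120, 180 and 65 and −1.43. The 4 genes were lowest in *arf7*-NAA. The list of indole glucosinolate and camalexin genes, with 37 members, had 1 call, *CYP83A1* itself, and a median of −0.17.

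Transcription factors and calcium sensors of the stress response had ratios mostly below 0 after NAA. Of 64 *WRKY* genes 4 fell and none rose, against 0.404% of all genes lower. The median was −0.17, and in Col it was −0.28 with 3 genes called lower. *WRKY40*, a repressor of defence genes, had 264, 460, 491 and 152 reads and −1.65 [−1.92, −1.39], against 0.83 in Col. *WRKY46* had 49, 76, 84 and 33 reads and −1.31, while *WRKY70* had 340, 160, 355 and 167 and *WRKY22* 171, 97, 175 and 81, falls of 1.05 and 1.07 on the log2 scale. *WRKY70* was called lower in Col as well, at −1.06.

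Among 62 EF-hand and calmodulin-like calcium sensors, a list drawn up after values were seen, 4 fell, against 0.404% of all genes. They included *CML37* with 135, 166, 158 and 55 reads and −1.48, *CML23* with 56, 86, 104 and 35 and −1.53, and *AT3G29000* with 165, 175, 200 and 72 and −1.43. *TCH4*, a touch-induced xyloglucan enzyme, had 549, 735, 838 and 380 reads and −1.10. *STZ*, a zinc finger repressor of the salt and cold response, had 1473, 2627, 1711 and 835 reads and just missed the 2-fold limit with −0.99 [−1.11, −0.87], against 0.86 in Col. *LOX3*, a lipoxygenase of jasmonate synthesis, had 17, 23, 33 and 5 reads and −2.68 [−4.40, −1.32]. Of 19 jasmonate genes with at least 20 reads 14 were below 0, beside 8691 of 16253 genes, and the median of the list was −0.22. *FMO1*, a monooxygenase of systemic immunity, had 20, 21, 50 and 13 reads and −1.90.

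Of the 92 falls, 12 were models called higher in Col, and the directions are set against each other in the plot of responses in both genotypes. They include 3 AP2/ERF factors, *ORA47*, *RRTF1* and *AT5G51190*, and *ACS6*, which makes the ethylene precursor. *ORA47* had 26, 116, 63 and 18 reads, with −1.77 in *arf7* and 2.19 in Col. In all 12 the Col-NAA library was the highest of the 4 and *arf7*-MOCK lay above Col-MOCK. Of the rises 1 was called lower in Col, *PLA2A*, a lipid acyl hydrolase, with 58, 16, 13 and 46 reads and ratios of 1.86 and −1.83.

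The 10 falls that both genotypes shared included metabolic genes. *MIOX2*, which oxidises myo-inositol, had 1454, 449, 1033 and 459 reads, with −1.13 in *arf7* and −1.67 in Col, and *DIN10*, a sugar-starvation gene of the raffinose synthase family, had 133, 63, 103 and 49, with −1.03 and −1.05. *GolS2*, a galactinol synthase, had 56, 3, 59 and 21 reads and a ratio of −1.45 in *arf7*. *ACA2*, an alpha carbonic anhydrase, had 167, 52, 182 and 79 reads and −1.16 in *arf7* and −1.65 in Col. In these genes both NAA libraries lay below both MOCK libraries.

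Further falls were of single genes. *AT3G20760*, annotated to the Nse4 component of the Smc5/6 DNA repair complex, had 52, 57, 70 and 5 reads and −3.77 [−5.43, −2.48]. Its reads covered 2.54% of the model in *arf7*-MOCK and 2.05% in *arf7*-NAA, so they fell on 1 short stretch of it. *AT3G44870*, a methyltransferase superfamily gene with 8, 4, 22 and 1 reads, had a ratio of −4.42 with a wide interval [−9.79, −1.79]. *RAS1*, a factor of the ABA and salt response, had 39, 29, 47 and 9 reads and −2.34 [−3.56, −1.30]. *AT2G22880*, a VQ motif protein, had 117, 128, 95 and 23 reads and −2.01 [−2.73, −1.34]. *GSTU5*, a glutathione transferase, had 476, 390, 963 and 404 reads and −1.21, and *MYB41*, a regulator of suberin, had 131, 131, 261 and 119 and −1.09. The last 2 were highest in *arf7*-MOCK, with the other 3 libraries close together.

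**Figure D5:**
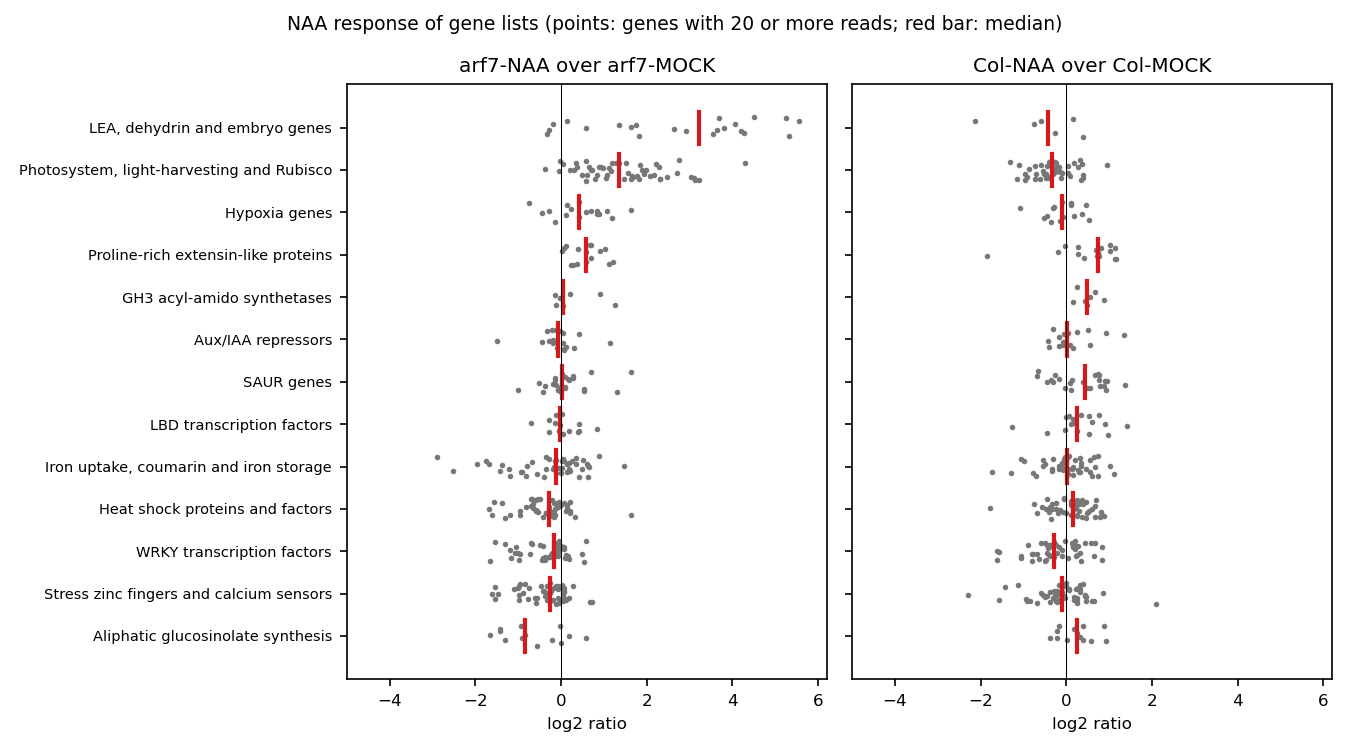
Log2 ratio of NAA to MOCK (horizontal axis) in *arf7* and in Col for the genes of 13 lists with at least 20 reads in the 2 libraries compared (points), with the list median as a red bar. The LEA and photosystem lists lie mostly above 0 in *arf7*, the heat shock and aliphatic glucosinolate lists lie mostly below it, and the early auxin families centre near 0 in *arf7*.

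Many lists gave no call in *arf7* and medians near that of all genes. Since only 0.391% of all genes rose and 0.404% fell, lists of this size would hold few calls or none. They were the 91 core cell cycle genes with a median of −0.09, the 36 histones with −0.07, the 51 cytosolic ribosomal proteins with 0.08, the 45 cytokinin genes with −0.00, the 45 nitrate genes with −0.05 and the 32 aquaporins with 0.05. The 35 regulators of lateral roots and root stem cells had a median of −0.00 in *arf7* and 0.22 in Col. The 57 phosphate and sulfate genes and the 34 flavonoid genes had medians of −0.23 and −0.20, with no gene of these lists called. The former list does not hold *ATSDI1* (AT5G48850), a sulfur starvation gene that was called lower. The 39 housekeeping genes had a median of 0.07 and no call. Of the 180 called models, the lists held 60 of the rises (68.2%) and 41 of the falls (44.6%). The lists were drawn up with earlier results of these data known, and 8 of them after values were seen. These shares therefore describe the choice of lists and are no result about the response.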

How the data were processed

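Root RNA of the 4 libraries was converted with random primers and sequenced on an Illumina instrument; aligner, genome build and strand are not given in the sources used here. The deposited tables give, per transcript model, counts of reads assigned to that model alone, RPKM from the authors' library totals, and the percent coverage of the model; genes with several models lose reads, and 1837 genes are stood for by a model numbered 2 or higher. The 4 comparison tables of the authors, which hold their log2 ratios, p-values and FDR and tag NAA libraries with an unexplained N50, were not used.

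Ratios were computed from the counts and library totals with Python 3.11.15 and SciPy 1.17.1: exact binomial tests, Clopper-Pearson intervals of ratios and Poisson intervals of counts at 95%, all covering counting error only. There is 1 library per condition, so no test across replicates was possible. The tests were tested on simulated data. Differences between genotypes carry approximate intervals and need 5 reads in each library. RPKM, coverage and gene positions are printed as deposited.

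The members and the 47 gene lists were chosen with earlier results of these data known, and 8 further lists (aliphatic glucosinolate, cuticle, proline-rich extensin-like, HSP20-like, EF-hand, GDSL, lipid-transfer and peroxidase) were added after values were seen; 318 of 2405 name matches that shared only a name were dropped. Medians use members with at least 20 reads summed over the libraries compared, with a count of 0 set to 3. The genes named are the 12 largest rises and falls with at least 10 reads in both *arf7* libraries, 6 called with fewer in each direction, the called and the 3 most abundant members of each list, and the study's auxin and lateral root genes; others, such as *HEC1*, *AT1G04560*, *BAG6*, *AT3G44870*, *LBD13* and *GolS2*, were chosen after their values were seen where the rule does not take them. Ratios were also computed with scaling factors from edgeR 4.0.16 (TMM) or DESeq2 1.42.0, with 1 RPKM added, with filters on reads and RPKM, with Benjamini-Hochberg adjustment and with reads summed per gene, and tested with the exact test of edgeR at assumed coefficients of variation of 0.1, 0.2 and 0.4. Promoter windows were read from RefSeq TAIR10.1.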

Additional observations from a re-analysis of the deposited data

Results flagged for a closer look

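The following 13 models passed the call in both genotypes in opposite directions, and values are the *arf7* response minus the Col response on the log2 scale. Each rests on 4 single libraries and has counting error only, with no replicate check. The difference was −3.95 for *ORA47* (26, 116, 63 and 18 reads in Col-MOCK, Col-NAA, *arf7*-MOCK and *arf7*-NAA), −3.73 for *RRTF1* (61, 228, 175 and 49) and −2.14 for *AT5G51190* (722, 1489, 867 and 403), all AP2/ERF factors. It was −3.74 for *AT3G02840* (21, 85, 60 and 18), −3.42 for *AT1G50750* (133, 503, 273 and 96) and −3.32 for *RTFL12* (65, 190, 131 and 38), a small peptide gene. The nudix hydrolase genes *NUDT21* (299, 930, 589 and 258) and *NUDT4* (388, 893, 626 and 272) differed by −2.82 and −2.39. *AT4G27280* (689, 1604, 971 and 399), an EF-hand protein, differed by −2.49, *AT4G29780* (616, 1650, 952 and 456) by −2.47, *SR45a* (39, 96, 86 and 40), a splicing factor, by −2.39 and *ACS6* (582, 1152, 929 and 439) by −2.06. In these 12 the Col-NAA library was the highest and the *arf7*-MOCK library next. *PLA2A* (58, 16, 13 and 46) was lowest in *arf7*-MOCK, with Col-NAA next, and had a difference of 3.69.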

How the results depend on the processing

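No paired analysis was possible because each condition has 1 library, and for the same reason no library could be left out. Scaling moved the log2 ratio of the *arf7*-NAA to the *arf7*-MOCK library size by −0.02 under TMM and −0.00 under DESeq2. The log2 ratios of all models moved upward by the same amount. The 88 rises and 92 falls became 91 and 81 under TMM, 88 and 92 under DESeq2 size factors, 81 and 79 with a pseudocount of 1 RPKM, 83 and 92 with at least 20 reads, 79 and 76 with an adjusted p under 0.001, and 88 and 87 with reads summed per gene. Assumed variation between libraries had the largest effect: with a coefficient of variation of 0.1 there were 63 and 61 calls, with 0.2 there were 41 and 5, and with 0.4 there were 8 and 0. The 5 falls at 0.2 were *FRO2*, *IRT1*, *CYP82C4*, *AT1G73120* and *AT3G20760*, and the 8 rises at 0.4 were all LEA-list genes. Of 338 named models 11 lost the call under TMM (among them *IAA10* and *AT4G29780*) and 20 with the pseudocount (among them *ABCG11*, *FTM1*, *LHB1B2*, *AT5G06630*, *WRKY22*, *DIN10* and *AT4G29780*). No ratio of a called model changed sign, and signs of the uncalled models were not compared. Of 47 list medians, that of the LEA list was 0.13 over its 7 genes with at least 100 reads and that of the seed storage list was 0.75 over its 12 genes with at least 1 read; with genes that share only a name kept, an alternative added after seeing the data, they were 1.63 and 1.33. No seed storage gene had 100 reads. The other list medians moved by less than the counting error of a typical member.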
